A study of Mus musculus with 228 samples.

Results

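Trans-synaptic organizers are adhesion proteins and secreted linkers that bind each other across the synaptic cleft and recruit the release machinery on one side and receptors on the other. Presynaptic hubs are the neurexins and the LAR-type receptor phosphatases. They are bound from the postsynaptic side by neuroligins, LRRTMs, SLITRKs and calsyntenins, with cerebellins as secreted bridges, while teneurins, FLRT proteins and SynCAMs form further pairs. In the hippocampus these families help to set which inputs a granule cell or a pyramidal cell accepts. The 38 organizer genes described here were taken from a named list of these families and looked up by symbol among the 22870 gene rows of the deposited counts. All 38 were found.

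RNA was sequenced from neurons collected 1 by 1 with a patch pipette in acute slices of mouse ventral hippocampus, at 3 to 4 months of age and 1 month after virus injection. Granule cells (GC) of the dentate gyrus were labelled in Calb1-Cre mice and pyramidal neurons of medial CA1 in Nex-Cre mice, so that cell type and Cre line cannot be told apart. AAV-EGFP GC (47 cells) and AAV-EGFP CA1 (46 cells) received a Cre-dependent adeno-associated virus (AAV) for green fluorescent protein alone. AAV-Ascl4 GC (51 cells) and AAV-Ascl4 CA1 (45 cells) received that virus and another that carries Ascl4, which encodes a transcription factor of the basic helix-loop-helix class. No group had a second virus without Ascl4, so Ascl4 and the second virus cannot be told apart. The labels name no animal or batch. Each group was therefore counted as 1 sample, no test was made, and the spread between animals is unknown.

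The cells held 1077532 to 25442664 gene-assigned reads each, with a median of 4488992. Ascl4 was at 47.2 and 32.6 counts per 1000000 reads (CPM) in the AAV-EGFP groups (GC, CA1) and at 14111 and 9395 CPM in the AAV-Ascl4 groups. The 15 granule cell markers summed to 4582 and 3373 CPM in the GC groups (AAV-EGFP, AAV-Ascl4) and 837 and 1541 CPM in the CA1 groups, and the 15 CA1 markers to 92.6 and 281 CPM against 4062 and 3874 CPM. By these markers 0, 3, 1 and 6 cells went against their label (AAV-EGFP GC, AAV-Ascl4 GC, AAV-EGFP CA1, AAV-Ascl4 CA1, the order used throughout). Glial RNA was present in all groups. The 12 microglia markers summed to 697, 1222, 1813 and 3282 CPM, with per-cell medians of 23.7, 147.7, 666 and 905 CPM, and the 13 oligodendrocyte markers to 625, 7624, 868 and 892 CPM, with per-cell medians of 238, 44.7, 441 and 156.2 CPM. Title numbers were split into 2 runs in each group, not named as batches in the labels, and their match across groups is arbitrary. In AAV-Ascl4 CA1 the second run pools separate blocks of title numbers, with AAV-EGFP CA1 cells numbered between them. Values of that run were not split by block.

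Most organizer genes had reads in many cells, but a given gene was at 10 CPM or more in a minority of gene and cell pairs. To count as expressed, a gene needed a read in 25% or more of some group's cells and a summed level of 10 CPM or more in some group. By this rule 35 of the 38 were expressed, and Cadm4, Cbln2 and Cbln4 were not. Of the 35, 22 reached 10 CPM in all 4 groups, 7 in 3, 3 in 2 and 3 in 1 group. The last 3 were Flrt1 and Nrxn2, through AAV-Ascl4 CA1, and Lrrtm3, through AAV-Ascl4 GC. Those in 2 groups were Tenm3, through both CA1 groups, Il1rapl1, through both GC groups, and Slitrk1, through both AAV-EGFP groups. All of these passed only through groups where they were high, so a difference from such a group came with the rule. Their calls against it are descriptions. Over all 6615 pairs of an expressed organizer gene and a cell, 33.1% had no read, 33.6% had a read below 10 CPM and 33.3% were at 10 CPM or more. Where a gene was at 10 CPM or more, its median level was 144.4 CPM. The median cell had 10, 8, 13.5 and 14 organizer genes at 10 CPM or more. As a share of the 35 expressed genes these medians were 28.6%, 22.9%, 38.6% and 40%, beside 24.5%, 23.6%, 29.6% and 32.7% for all 10745 expressed genes. With every cell thinned to 500000 reads, the median cell had a read of 16, 15, 16.5 and 17 organizer genes.

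**Figure D1:**
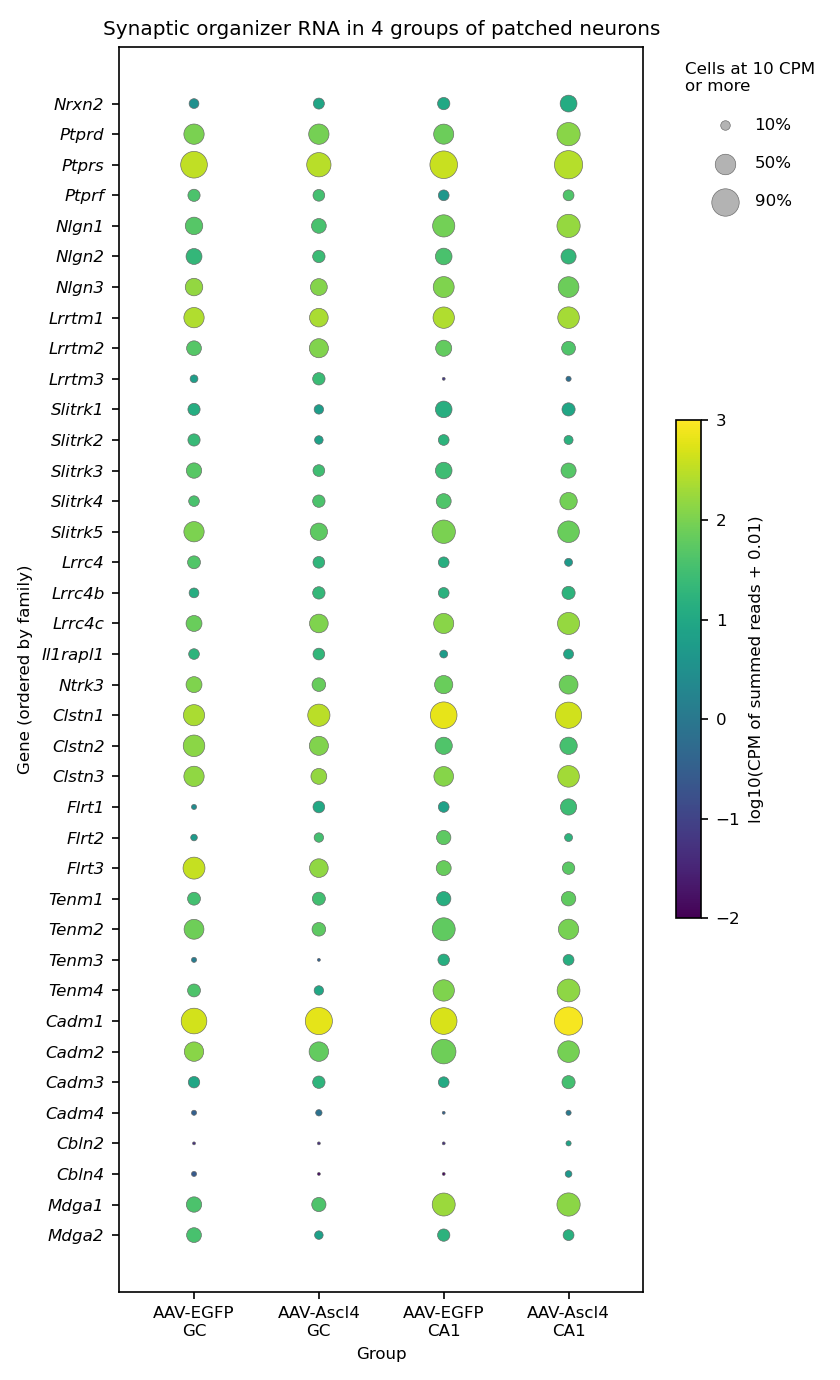
Colour shows the log10 of the level in CPM of summed reads plus 0.01, and circle area grows with the percent of cells at 10 CPM or more, for 38 organizer genes (rows) in the 4 groups (columns). Cadm1, Ptprs, Clstn1 and Lrrtm1 were bright in every group, and Cadm4, Cbln2 and Cbln4 were dark or small throughout.

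Levels between genes were compared only after dividing CPM by the summed exon length in kilobases. How the library protocol depends on transcript length is not stated. The calsyntenin Clstn1, an adhesion protein of the cadherin superfamily, had the highest mean over the 4 groups, with 49.4, 64.5, 142.9 and 91.6 CPM per kilobase. Lrrtm1, a postsynaptic neurexin ligand of excitatory synapses, followed with 69.5 to 82.6 CPM per kilobase and stood above Clstn1 in both GC groups, at 82.6 and 77.1. In AAV-EGFP GC Flrt3, at 73.5, was above Clstn1 as well. The SynCAM Cadm1, an immunoglobulin adhesion protein, came next in the mean, with 44.02 to 80.2 CPM per kilobase. In the mean over the 4 groups the leading genes of the other families were Ptprs among the LAR-type phosphatases (21.3 CPM per kilobase, against 4.28 for Ptprd and 3.17 for Ptprf), Lrrc4c among the netrin-G ligands (25.3 against 5.69 and 5.08), Slitrk5 among the SLITRKs (15.8 against 8.05 or less) and Nlgn3 among the neuroligins (12.3 against 6.20 and 4.46). Flrt3 led the FLRTs with 32.2 CPM per kilobase, Mdga1 the MDGAs with 10.4, Tenm2 the teneurins with 6.31, and Ntrk3 stood at 2.70 beside 1.37 for Il1rapl1. Nlgn3 shares 41.2% of its exon bases with the transcript model Gm21986 on the same strand, so its count is uncertain. Nrxn2, a presynaptic neurexin, was low in all groups at 0.220 to 0.852 CPM per kilobase.

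Cadm1 and Ptprs were also the most widely detected. Cadm1 was at 459, 619, 508 and 837 CPM, with per-cell medians of 391, 531, 492 and 518 CPM, and 37 of 47, 45 of 51, 39 of 46 and 43 of 45 cells reached 10 CPM. Ptprs was at 328, 292, 377 and 281 CPM, and 40, 36, 42 and 43 cells reached 10 CPM. Lrrtm1 had close summed levels in the 4 groups, at 251, 233.8, 249 and 210.9 CPM, and 23, 21, 25 and 25 cells were at 10 CPM or more. In CA1 cells, however, its log2 ratio of AAV-Ascl4 to AAV-EGFP was 1.68 in the first run and -1.92 in the second. It lies inside Ctnna2 on the other strand, and the strand setting of the counting is not stated. The unexpressed Cbln2, a secreted neurexin ligand, was at 0.0419, 0.0409, 0.0441 and 8.11 CPM, and 98.4% of its reads in AAV-Ascl4 CA1 came from 1 cell. Cbln4, of the same family, reached 10 CPM in 1, 0, 0 and 2 cells, and Cadm4, a SynCAM also made by myelinating glia, in 1, 2, 0 and 1 cells.

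The design first allows CA1 pyramidal neurons to be set against granule cells, once with AAV-EGFP and once with AAV-Ascl4. These comparisons share no cell. In AAV-EGFP cells, 10 of the 35 expressed organizer genes were at least 1.5-fold higher in CA1 and 10 at least 1.5-fold lower (31.3% and 27% of all expressed genes passed the same limits). In AAV-Ascl4 cells 12 were higher and 8 lower, beside 33.6% and 25.3% of all expressed genes. These shares lie near the background. With either virus 11 of the 12 microglia markers were at least 1.5-fold higher in CA1 and 0 lower, and their part in these values was not tested. Over all 38 genes found the counts were 10 and 10, and 14 and 8. The median log2 ratio of the expressed organizer genes was -0.01 with AAV-EGFP and 0.44 with AAV-Ascl4, beside 0.03 and 0.13 for all expressed genes. All log2 ratios were taken of CPM plus 1 (summed reads), which understates differences of low genes. A difference was called steady when it passed 1.5-fold the same way in summed reads, in the average over cells and in that average without each group's highest cell, and the share of cells at 10 CPM or more differed the same way. By that rule 10 were higher and 7 lower in AAV-EGFP CA1 (25.4% and 15.5% of all expressed genes), and 7 and 7 in AAV-Ascl4 CA1 (25.7% and 13.8%).

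Steady the same way with both viruses were 10 organizer genes. Higher in CA1 were Tenm4, Tenm3, Mdga1, Nlgn1 and Flrt1, and higher in granule cells were Clstn2, Flrt3, Lrrtm3, Lrrc4 and Il1rapl1. Of these, Tenm3 counted as expressed only through the CA1 groups and Il1rapl1 only through the GC groups. Flrt1 did so only through AAV-Ascl4 CA1 and Lrrtm3 only through AAV-Ascl4 GC. Their directions against those groups were favoured by the rule and are descriptions. Of all 10745 expressed genes, 1605 were steady the same way with both viruses and 487 in opposite directions, and for the organizer genes the latter count was 1 (Flrt2). Across the 35 genes, which are not independent replicates, the log2 ratios with the 2 viruses had Pearson's r = 0.55, beside 0.34 over all expressed genes. By sign alone the organizer genes were no closer, since 19 of the 35 (54.3%) had the same sign, beside 58.7% of all expressed genes. At least 1.5-fold differences the same way in both title-number runs of both viruses were seen for Tenm3, Tenm4 and Mdga1 on the CA1 side and Clstn2 on the granule cell side. Of all expressed genes, 5.01% met this on the CA1 side and 3.08% on the granule cell side. Leaving out the cells that went against their label, or the 0, 4, 0 and 1 cells with more than 12000 genes, turned no steady direction of an organizer gene.

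**Figure D2:**
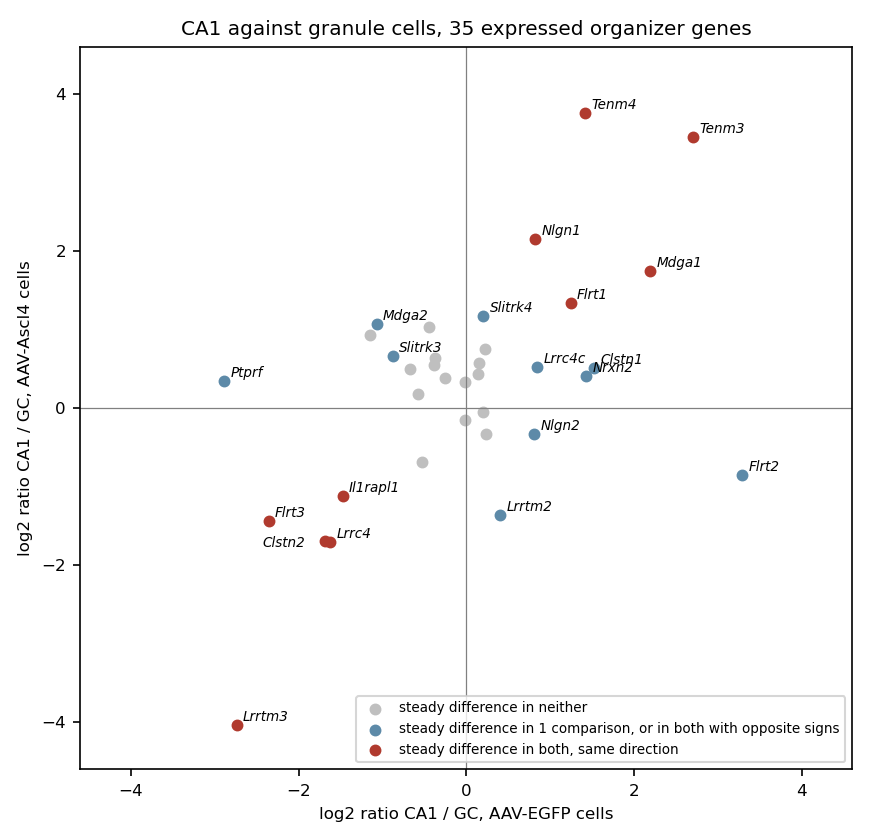
Each point is 1 of 35 expressed organizer genes, with the log2 ratio of CA1 to granule cells in AAV-EGFP cells on the horizontal axis and in AAV-Ascl4 cells on the vertical axis. Red points differ steadily the same way with both viruses, with Tenm3 and Tenm4 at the upper right and Lrrtm3 at the lower left, while Flrt2 lies far right and below 0.

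Teneurins are large adhesion proteins that bind each other and latrophilins across the synapse. Tenm4 (chromosome 7, 96171246 to 96911093, plus strand, GRCm38) was at 39.8 CPM (95% exact Poisson interval 38.96 to 40.65, which covers counting error only) in AAV-EGFP GC and 9.36 CPM in AAV-Ascl4 GC, against 108.3 and 139.6 CPM in the CA1 groups. Its median cell was at 0.265, 0, 29.6 and 68.1 CPM, the lowest cell at 0 in every group and the highest at 569, 219.3, 784 and 369.5 CPM. The groups overlapped, but 9 of 47 and 5 of 51 granule cells reached 10 CPM (19.1%, 95% exact Clopper-Pearson interval 9.15 to 33.3, and 9.80%, 3.26 to 21.4), against 25 of 46 and 28 of 45 CA1 cells (54.3%, 39.01 to 69.1, and 62.2%, 46.5 to 76.2). The log2 ratio of CA1 to GC was 1.42 with AAV-EGFP and 3.76 with AAV-Ascl4, and 0.91, 1.75, 3.81 and 3.90 in the 2 runs of each virus. Without the cells that had more than 1000 CPM of glial and vascular markers, which left 22, 22, 11 and 12 cells, the AAV-EGFP ratio was 0.36 and no longer past 1.5-fold.

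Tenm3 (chromosome 8, 48227682 to 48843951, minus strand) was scarce and lay mostly in CA1 cells. It was at 1.21, 0.348, 13.4 and 13.8 CPM, with 1, 0, 7 and 6 cells at 10 CPM or more, and the single granule cell above 10 CPM, at 113.6 CPM, held 98.9% of the reads of AAV-EGFP GC. The highest CA1 cells were at 139.4 and 194.9 CPM, while the median cell was at 0 in all 4 groups. The log2 ratios were 2.70 and 3.45. Tenm2, the most abundant teneurin per length, was not steadily different, at 78.3, 58.8, 60.3 and 92.4 CPM with 22, 11, 29 and 22 cells at 10 CPM or more. Tenm1 was at 31.6, 30.5, 13.8 and 58.9 CPM, and 1 cell held 61.3% of its reads in AAV-Ascl4 CA1.

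Mdga1 binds neuroligins on the same membrane and keeps neurexins from binding them. This gene (chromosome 17, 29827949 to 29970087, minus strand) was at 38.7, 39.6, 180.3 and 135.5 CPM. Its median cell was at 0.385, 0.216, 84.8 and 66.5 CPM, and 13, 12, 29 and 29 cells reached 10 CPM. Both CA1 groups lay above both GC groups in level and share, with overlap between single cells, and the log2 ratios were 2.19 and 1.75. With the authors' normalized values, whose scaling also moved the median of all expressed genes from 0.13 to -0.27, the AAV-Ascl4 ratio of Mdga1 was 0.44 and under 1.5-fold. The related Mdga2 did not share this order, at 35.6, 6.52, 16.5 and 14.8 CPM with 12, 4, 8 and 6 cells at 10 CPM or more. It was steadily lower in CA1 only in the AAV-EGFP comparison (-1.07), and the difference between the 2 comparisons was not tested.

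Among the neuroligins, postsynaptic partners of neurexins, Nlgn1 of excitatory synapses (chromosome 3, 25426215 to 26332460, minus strand) was higher in CA1. It was at 48.7, 35.7, 87.1 and 161.6 CPM, its median cell at 0.793, 0.402, 19.3 and 35.9 CPM, and 17, 13, 27 and 29 cells reached 10 CPM. The log2 ratios were 0.83 and 2.15, but in the first run of AAV-EGFP cells only 0.08. An antisense gene, A830092H15Rik, overlaps 9.16% of its exon bases. Nlgn2, found at inhibitory synapses, was at 20.5, 25.7, 36.7 and 20.2 CPM and steadily higher in AAV-EGFP CA1 (0.81). The direction of Nlgn2 turned to -1.96 without the cells rich in glial and vascular markers, and its ratio was 0.13 with the authors' normalized values. Nlgn3 was at 155.1, 120.2, 107.4 and 74.03 CPM and differed at least 1.5-fold only with AAV-Ascl4 (-0.69), not steadily.

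**Figure D3:**
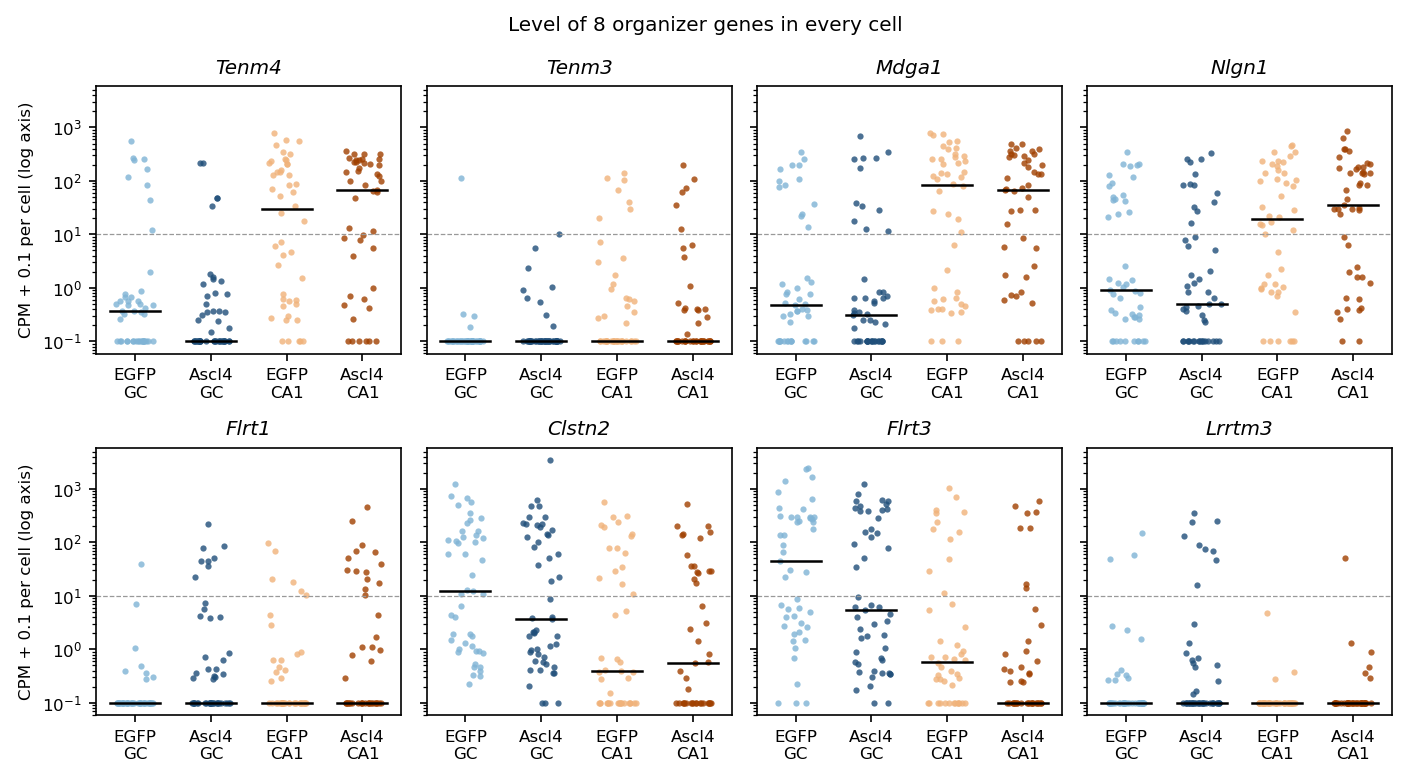
Each point is 1 cell, at its level in CPM plus 0.1 on a log axis, for 8 organizer genes in the 4 groups, with a bar at the median cell and a dashed line at 10 CPM. Most genes split into cells near 0 and cells above 10 CPM. For Tenm4, Mdga1 and Nlgn1 the median bar lies above the line in both CA1 groups and below it in both GC groups.

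Of the FLRT proteins, which bind teneurins, latrophilins and Unc5 receptors, each member had its own pattern. Flrt3 (chromosome 2, 140650914 to 140671469, minus strand) was higher in granule cells, at 358, 146.7, 69.01 and 53.5 CPM. Its median cell was at 43.9, 5.32, 0.491 and 0 CPM, and 27, 21, 12 and 8 cells reached 10 CPM. The log2 ratios of CA1 to GC were -2.36 and -1.44, and -0.28 in the second run of AAV-Ascl4 cells. Flrt1 was low, at 2.41, 9.96, 7.09 and 26.8 CPM with 1, 8, 6 and 14 cells at 10 CPM or more, and higher in CA1 (1.25 and 1.34), though by only 0.17 and 0.34 in the first run of each virus. Flrt2 was at 4.98, 31.9, 57.6 and 17.2 CPM with 2, 5, 11 and 3 cells at 10 CPM or more, and its ratio was 3.29 with AAV-EGFP and -0.85 with AAV-Ascl4. In AAV-Ascl4 CA1 1 cell held 74.05% of the Flrt2 reads. Flrt1 lies inside Macrod1 and Flrt3 inside Macrod2, each on the other strand, with no shared exon bases. Macrod1 was at 26.02, 6.47, 7.45 and 2.12 CPM and Macrod2 at 43.5, 41.9, 58.3 and 55.9 CPM. Across the groups Macrod1 had the reverse order of Flrt1, and Macrod2 was not in the order of Flrt3. The part of host gene reads in the Flrt1 and Flrt3 values was not tested.

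Of the calsyntenins, Clstn2 differed steadily by cell type with both viruses, Clstn1 with AAV-EGFP and Clstn3 with neither. Clstn2 (chromosome 9, 97444395 to 98033181, minus strand) was higher in granule cells, at 133.8, 111.6, 41.04 and 33.9 CPM. Its median cell was at 12.4, 3.58, 0.289 and 0.463 CPM, and 26 of 47 and 22 of 51 granule cells reached 10 CPM against 16 of 46 and 16 of 45 CA1 cells. The log2 ratios were -1.68 and -1.69, and the 4 values by run and virus lay between -1.55 and -1.84. Clstn1 was at 230.4, 300.8, 666 and 427 CPM with median cells at 15.96, 199.3, 431 and 354 CPM. It was steadily higher in CA1 with AAV-EGFP (1.53), while the ratio with AAV-Ascl4 was 0.50. Clstn3 was at 149.8, 155.7, 125.4 and 203.1 CPM (ratios -0.25 and 0.38).

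The LRRTMs and the netrin-G ligands are leucine-rich repeat proteins of the postsynaptic membrane. Lrrtm3 was at 6.07, 25.5, 0.0601 and 0.616 CPM, and 3, 9, 0 and 1 cells reached 10 CPM. The 0 of 46 cells of AAV-EGFP CA1 allow a share of up to 7.71% (exact Clopper-Pearson, 95%). Its log2 ratios were -2.74 and -4.04, although in the first run of AAV-EGFP cells both cell types were near 0. Its host gene Ctnna3, on the other strand, was at 0.140 CPM or less in every group. Lrrc4, which binds netrin-G2 on axons, was at 43.7, 18.9, 13.5 and 5.09 CPM with 9, 8, 6 and 3 cells at 10 CPM or more, and its ratios were -1.62 and -1.71 but -0.19 and -0.34 in the second runs. Its host gene Snd1, on the other strand, was at 34.7, 65.4, 122.1 and 137.8 CPM. Lrrc4c, the netrin-G1 ligand, was at 71.2, 110.03, 128.8 and 158.8 CPM, steadily higher in CA1 with AAV-EGFP (0.85).

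Of the presynaptic hubs, Ptprs and Ptprd were steady in neither cell type comparison. Ptprs had ratios of 0.20 and -0.05 and Ptprd -0.39 and 0.55. Ptprf was at 38.4, 32.3, 4.33 and 41.1 CPM with 8, 8, 6 and 6 cells at 10 CPM or more, and steadily lower in AAV-EGFP CA1 (-2.88). A single cell held 43.6% of its reads in AAV-Ascl4 GC and 65.8% in AAV-Ascl4 CA1. Nrxn2 was at 3.03, 8.62, 9.87 and 11.8 CPM, with 5, 7, 8 and 15 cells at 10 CPM or more, and was steadily higher in AAV-EGFP CA1 (1.43). Without the cells rich in glial and vascular markers this ratio was -1.05. Il1rapl1, a postsynaptic partner of Ptprd, was at 17.1, 19.9, 5.53 and 8.61 CPM with 6, 8, 3 and 5 cells at 10 CPM or more (ratios -1.47 and -1.12, and -0.42 in the first run of AAV-Ascl4 cells). The receptor tyrosine kinase Ntrk3, which also binds Ptprs, was at 108.8, 67.7, 72.4 and 76.5 CPM and not steadily different between cell types.

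Among the SLITRKs, ligands of LAR-type phosphatases, none was steady with both viruses. Slitrk4 was steadily higher in CA1 with AAV-Ascl4 (1.17), at 36.7, 38.03, 42.4 and 87.1 CPM, and 6, 9, 12 and 16 cells reached 10 CPM. Its ratio was 0.49 with the authors' normalized values and 0.23 in the first run. Slitrk3 was steady there too (0.66) and turned to -1.06 in the second run. Lrrtm2 was steadily lower in CA1 with AAV-Ascl4 (-1.36), though its ratio in the second run was -0.07. The SynCAMs Cadm1, Cadm2 and Cadm3 were steady in neither comparison.

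**Figure D4:**
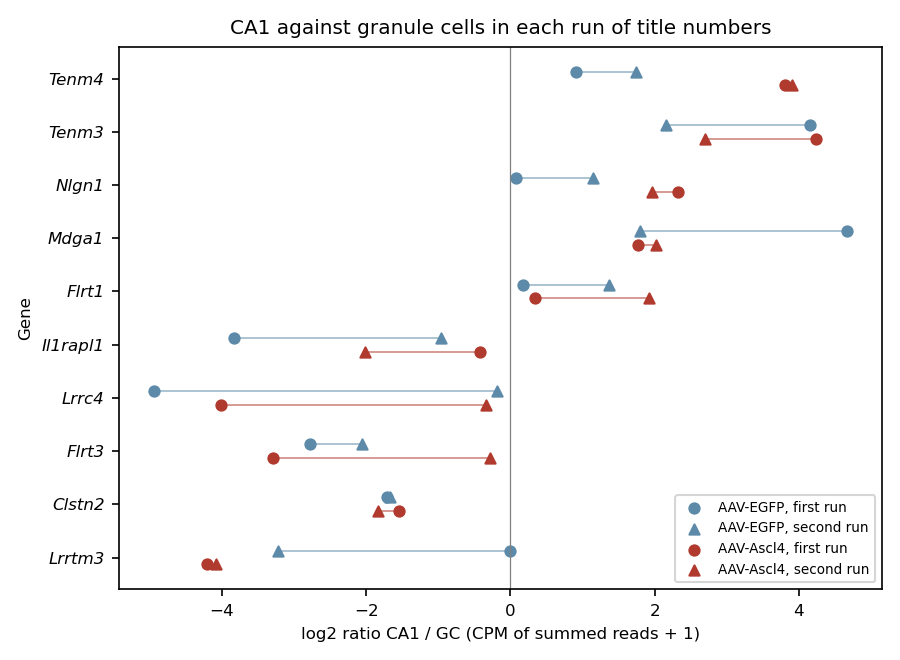
Log2 ratios of CA1 to granule cells (horizontal axis) for the 10 organizer genes (rows) that differed steadily with both viruses, computed in each title-number run (circle first, triangle second) of AAV-EGFP (blue) and AAV-Ascl4 cells (red). Clstn2 has its 4 values close together, whereas Lrrc4, Il1rapl1 and Lrrtm3 spread widely.

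Within 1 group, organizer genes were compared in pairs from cell to cell. Only pairs with each gene at 10 CPM or more in 10 or more cells were used. No value for pairs of all expressed genes stands beside these medians. Across the cells of a group the median Spearman's rho over pairs of organizer genes was 0.0952 in AAV-Ascl4 CA1, 0.0636 in AAV-Ascl4 GC, 0.108 in AAV-EGFP CA1 and 0.124 in AAV-EGFP GC. These values share cells and read depth and are a description. The highest pair of any group was Slitrk3 with Cadm2 in AAV-EGFP GC (rho 0.59). The pairs named next were picked as the highest of 253 in AAV-Ascl4 CA1. There, 24 of 45 cells had both Ptprd and Tenm4 at 10 CPM or more, 5 only Ptprd and 4 only Tenm4 (rho 0.58). Likewise 24 had both Tenm4 and Mdga1, 4 only Tenm4 and 5 only Mdga1 (rho 0.56).

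Proximal promoter sequences of Tenm4, Flrt3 and Lrrc4 are shown because these genes stood for the CA1 side, the granule cell side and a lower level with Ascl4 in both cell types. They are the 250 bases before the RefSeq start (GRCm38.p6), on the gene's strand, with none in a GENCODE exon. Basic helix-loop-helix factors bind E-boxes, and capitals mark each match to the 6-base E-box CANNTG, a motif that reads the same on both strands.

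Tenm4, chr7:96170994-96171243, plus strand: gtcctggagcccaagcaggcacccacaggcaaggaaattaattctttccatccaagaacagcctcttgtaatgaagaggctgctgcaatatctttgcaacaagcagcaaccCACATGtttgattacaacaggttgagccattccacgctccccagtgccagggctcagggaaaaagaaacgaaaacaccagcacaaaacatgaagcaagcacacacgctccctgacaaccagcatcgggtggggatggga

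Flrt3, chr2:140671477-140671726, minus strand: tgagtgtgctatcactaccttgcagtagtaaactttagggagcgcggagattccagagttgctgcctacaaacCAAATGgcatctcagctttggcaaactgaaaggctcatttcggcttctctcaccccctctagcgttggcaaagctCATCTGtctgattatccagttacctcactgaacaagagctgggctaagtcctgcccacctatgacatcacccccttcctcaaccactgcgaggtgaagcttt

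Lrrc4, chr6:28831748-28831997, minus strand: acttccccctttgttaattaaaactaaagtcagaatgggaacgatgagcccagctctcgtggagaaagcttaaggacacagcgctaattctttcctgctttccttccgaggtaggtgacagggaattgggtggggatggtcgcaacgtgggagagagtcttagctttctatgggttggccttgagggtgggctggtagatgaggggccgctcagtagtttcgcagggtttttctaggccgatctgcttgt

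The Tenm4 window held 1 match, near its middle. A second RefSeq start of Tenm4 had 3 matches in its own window. The Flrt3 window held 2, and the Lrrc4 window none. RefSeq promoters were matched for 29 of the organizer genes, with 34 windows, of which 20 (58.8%) held CANNTG, beside 66.2% of the 32851 windows of all genes. The form CAGCTG was in 5.88% of the organizer windows and 13% of all windows. A match is a description of letters and not a binding site.

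The other question was how cells given AAV-Ascl4 differed from cells given AAV-EGFP. In granule cells 8 organizer genes were at least 1.5-fold higher and 11 lower (26.7% and 30.6% of all expressed genes), of which 7 and 7 were steady (19% and 19.2%). In CA1 cells 12 were higher and 4 lower (25.2% and 24.8% of all expressed genes), of which 7 and 4 were steady (16.8% and 14.9%). Over all 38 genes found the counts were 8 and 11, and 15 and 4. The median log2 ratio of the expressed organizer genes was -0.14 in GC and 0.12 in CA1, beside -0.06 and -0.01 for all expressed genes. The ratios in GC and CA1, which share no cell, had Pearson's r = 0.07 across the 35 genes and 0.12 over all expressed genes. Marker sums differed between the same groups. In granule cells 8 of 15 granule cell markers were at least 1.5-fold lower and 2 higher with AAV-Ascl4, and 6 of 12 microglia markers were higher and 1 lower. Of the 13 oligodendrocyte markers 7 were expressed, and 6 of these were higher there and 0 lower. The per-cell median of their sum was nevertheless lower, at 44.7 against 238 CPM, and the highest AAV-Ascl4 cell was at 116302 CPM. Other glial markers did not rise as a set. Of 9 expressed astrocyte markers 3 were higher and 4 lower in granule cells, and 2 and 3 in CA1 cells. Of 2 expressed oligodendrocyte precursor markers 0 were higher and 1 lower in each cell type. In CA1 cells 9 of 15 granule cell markers and 8 of 12 microglia markers were higher, and 1 and 0 lower, while 7 of 15 CA1 markers were lower and 3 higher. The part of these cells or RNAs in the organizer values was not tested.

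Of the 35 genes, Flrt1 and Lrrc4 were steady the same way in both cell types and Flrt2 in opposite directions. Of all expressed genes 858 were steady the same way and 614 in opposite directions. Flrt1 was higher with AAV-Ascl4, at 9.96 against 2.41 CPM in GC (8 of 51 against 1 of 47 cells at 10 CPM or more) and at 26.8 against 7.09 CPM in CA1 (14 of 45 against 6 of 46 cells). Its log2 ratios were 1.68 and 1.78, and 3.51 and 1.12 in the runs of GC and 3.68 and 1.68 in those of CA1. The GC ratio was 0.35 without the cells rich in glial and vascular markers. The CA1 comparison uses the group through which Flrt1 counted as expressed. In the AAV-EGFP GC group 1 cell held 90.3% of the Flrt1 reads, and the median cell was at 0 CPM in every group. Lrrc4 was lower with AAV-Ascl4 by ratios of -1.16 and -1.25, in all 4 runs. In GC the share of cells differed little, at 8 of 51 against 9 of 47 cells. In CA1 it was 3 of 45 against 6 of 46 cells. The first CA1 run of Lrrc4 was low, at 0.628 against 1.78 CPM. A single cell held 47.8% of the Lrrc4 reads in AAV-Ascl4 CA1 and 50.3% in AAV-EGFP CA1. Of all expressed genes 2.02% were at least 1.5-fold higher and 1.69% lower in both runs of both cell types.

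**Figure D5:**
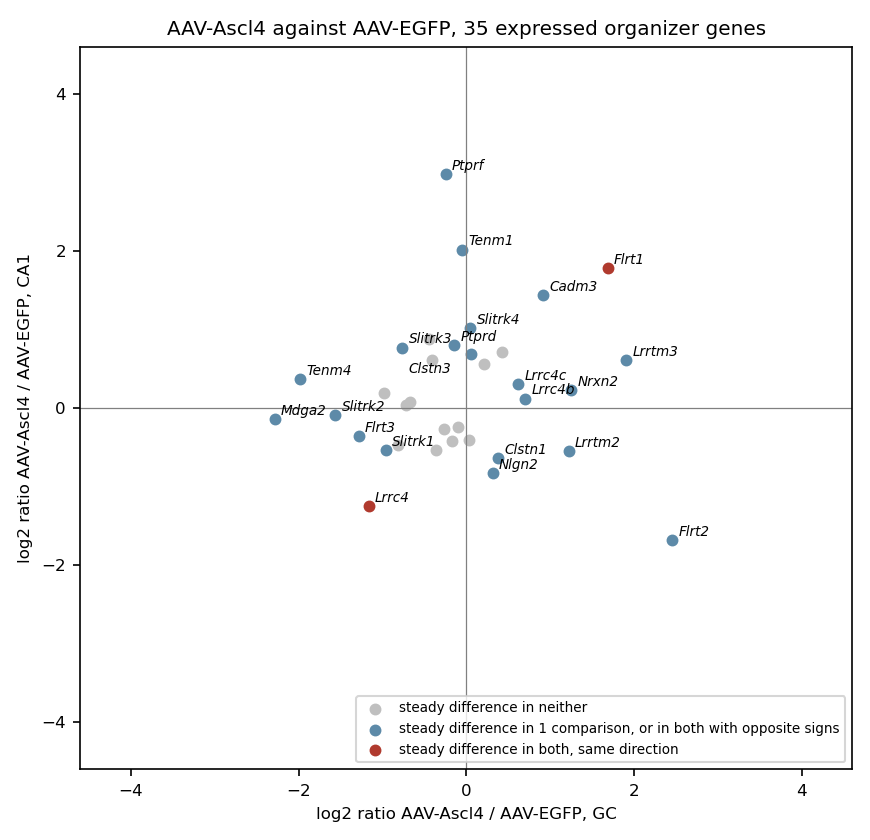
Each point is 1 of 35 expressed organizer genes, with the log2 ratio of AAV-Ascl4 to AAV-EGFP in granule cells on the horizontal axis and in CA1 cells on the vertical axis. Red marks Flrt1 and Lrrc4, which differ steadily the same way in both cell types, and most other labelled genes lie near one of the axes.

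In granule cells the steadily lower genes were Mdga2 (log2 ratio -2.28), Tenm4 (-1.98), Slitrk2 (-1.56), Flrt3 (-1.28), Lrrc4, Slitrk1 (-0.95) and Slitrk3 (-0.76). Mdga2 was at 6.52 CPM against 35.6 CPM, and 4 of 51 against 12 of 47 cells reached 10 CPM. Tenm4 was at 9.36 against 39.8 CPM and Flrt3 at 146.7 against 358 CPM, and both were at least 1.5-fold lower in each run. Slitrk2 was at 7.23 against 23.3 CPM, with a ratio of -0.30 without the cells rich in glial and vascular markers. Slitrk1 was at 5.92 against 12.4 CPM, with -0.41 in the second run, and it counted as expressed only through the AAV-EGFP groups. Slitrk3, an inducer of inhibitory synapses, was at 29.8 against 51.2 CPM with a ratio of -3.61 in the first run and 0.33 in the second.

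Steadily higher in AAV-Ascl4 granule cells were Flrt2 (2.46), Lrrtm3 (1.91), Flrt1, Nrxn2 (1.25), Lrrtm2 (1.22), Lrrc4b (0.70) and Lrrc4c (0.62). Lrrtm2, a neurexin ligand of excitatory synapses, was at 111.4 against 47.2 CPM, and 22 of 51 against 12 of 47 cells reached 10 CPM. It lies inside Ctnna1 on the other strand and shares 1.58% of its exon bases, and Ctnna1 itself was at 55.4 against 1.27 CPM. In AAV-Ascl4 GC, 8 of the 11 cells with Ctnna1 at 10 CPM or more also had Lrrtm2 at that level, against 14 of the other 40. Without the cells of each group that had Ctnna1 at 10 CPM or more, Lrrtm2 was at 124.3 against 46.4 CPM. The part of host gene reads in the Lrrtm2 values was not tested. Lrrtm3 was at 25.5 against 6.07 CPM, with 9 against 3 cells at 10 CPM or more, and AAV-Ascl4 GC is the group through which it counted as expressed. Lrrc4c was at a ratio of 0.06 in the second run. Nrxn2 was below 10 CPM in both groups, at 8.62 against 3.03 CPM. Its median cell went the other way, at 0.0777 against 0.385 CPM. The direction of Nrxn2 turned in the first run (-0.31), and that of Lrrc4b in the second run (-1.47) and without the cells rich in glial and vascular markers (-0.35).

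In CA1 cells the steadily higher genes were Ptprf (2.98), Tenm1 (2.02), Flrt1, Cadm3 (1.44), Slitrk4 (1.02), Ptprd (0.80) and Clstn3 (0.69). Ptprd, a presynaptic hub phosphatase, was at 130.3 against 74.3 CPM with median cells at 44.02 and 7.61 CPM, and 29 of 45 against 22 of 46 cells reached 10 CPM. The share of cells with Ptprf and with Tenm1 was nearly equal in both groups, at 6 of 45 and 6 of 46 for Ptprf and 11 of 45 and 11 of 46 for Tenm1. Cadm3 was at 31.4 against 10.9 CPM. Without the cells rich in glial and vascular markers the ratio was -4.08 for Cadm3 and -0.58 for Clstn3. Steadily lower were Flrt2 (-1.68), Lrrc4, Nlgn2 (-0.83) and Clstn1 (-0.64). Clstn1 was at 427 against 666 CPM, with median cells at 354 and 431 CPM and a ratio of -0.19 in the first run. Nlgn2 turned to 1.95 without the cells rich in glial and vascular markers.

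Flrt2 was the 1 organizer gene that was steady in opposite directions, higher with AAV-Ascl4 in GC and lower in CA1. It reached 10 CPM in 5 of 51 against 2 of 47 granule cells and in 3 of 45 against 11 of 46 CA1 cells. In CA1 its ratio was 3.92 in the first run and -4.89 in the second, so that its direction there rests on the second run.

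Other genes that work with these organizers were counted in the same way. Of 37 further surface and secreted organizer genes, 27 were expressed, and of 32 intracellular scaffold partners 30. The surface genes C1ql2 and C1ql3 are also in the granule cell marker list, so their values enter both sets of counts. Their cell type differences came with that choice. In AAV-EGFP cells 7 of the 27 were at least 1.5-fold higher in CA1 and 12 lower, and of the 30 scaffold genes 14 were higher and 5 lower, beside 31.3% and 27% of all expressed genes. Steadily lowest in CA1 were C1ql2, Lrrtm4 and Cbln1 (log2 ratios -9.75, -5.94 and -2.70), and highest Igsf21, Adgrl2 and Lingo1 (5.84, 5.36 and 2.02). Adgrl2, a latrophilin and thus a receptor for teneurins and FLRTs, was at 238 CPM in CA1 and 4.80 CPM in GC. Of the scaffold genes Magi1, Tiam1 and Lin7c were lowest (-4.11, -2.90 and -1.97) and Dlgap2, Magi3 and Lin7a highest (3.70, 2.85 and 2.52). In AAV-Ascl4 cells 9 and 12 of the surface genes and 10 and 6 of the scaffold genes were higher and lower in CA1 (33.6% and 25.3% of all expressed genes). Lowest there were Cbln3, C1ql2 and Cbln1 (-5.42, -3.80 and -3.55), and highest Igsf21, Unc5d and Adgrl2 (4.82, 3.35 and 3.26). Of the scaffold genes, Tiam1 and Ppfia2 were steadily lower (-3.24 and -1.62), and Caskin1, Ppfia4 and Dlgap4 were highest (1.91, 1.75 and 1.18).

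With AAV-Ascl4 in granule cells 9 of the 27 surface genes were higher and 8 lower than with AAV-EGFP, and of the 30 scaffold genes 9 and 4 (26.7% and 30.6% of all expressed genes). Lrfn4, Cbln3 and Igsf21 were highest (3.83, 2.82 and 1.99), and the granule cell ligand C1ql2, Gpc4 and Nptx2 lowest (-1.78, -1.59 and -1.41). Among scaffolds Lin7a, Dlgap2 and Shank1 were highest (2.45, 2.41 and 1.32), and Homer1, Ppfia2 and Magi1 lowest (-1.49, -1.10 and -1.05). In CA1 cells 10 surface genes were higher and 2 lower, and 5 and 8 scaffold genes (25.2% and 24.8% of all expressed genes). C1ql2, Unc5d and Lrrtm4 were highest (4.17, 3.58 and 3.00) and Lrfn5 and Nptx1 lower (-0.89 and -0.82), while Magi1 and Lin7c were the steadily higher scaffolds (3.55 and 0.63) and Ppfia2, Lin7a and Magi2 lowest (-1.42, -1.30 and -1.21).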

How the data were processed

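Single-neuron RNA was read from the deposited count table, which holds whole-number counts of reads per gene for the 189 cells that passed the authors' quality control. A further deposited table holds counts of all 228 cells, and another the authors' normalized signal, made by a method that no source used here gives. Per the submitters' processing notes, STAR, HTSeq and GRCm38.p4 were used. Their versions and settings, the strandedness and the quality rules were not stated. The series text counts 53, 52, 48 and 51 passing cells, and the table has 47, 51, 46 and 45.

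Groups came from the sample titles. Reads were summed over the cells of a group, scaled to 1000000 without the 92 spike-in rows, and compared as log2 ratios with 1 CPM added. Deeper cells weigh more in such sums. Cells are not replicates, so no p-value was computed. Intervals are exact at 95%. Poisson intervals of levels cover at most the counting error of reads. Clopper-Pearson intervals of shares take the cells of a group as independent draws. Neither covers the spread between animals. Reads carried no molecular identifiers, so repeated reads of 1 molecule were not told apart and the Poisson intervals may be too narrow. No cell columns were identical, and the highest correlation between any pair of cells was 0.61.

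The organizer genes and the marker, surface and scaffold lists were chosen with earlier results of these data known. Genes described in full in a comparison were the expressed ones with a steady difference, the leading gene of each family per length, and genes steady in opposite directions. For the other surface and scaffold lists the 3 highest and 3 lowest steady genes were named. The Ctnna1 check of Lrrtm2, the cell-by-cell pairs and leaving out cells rich in glial and vascular markers were chosen after seeing the data. Positions are from GENCODE on GRCm38.

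Alternatives were the mean of per-cell CPM with and without the highest cell, a pseudocount of 0.1 or 10 CPM, scaling of the deposited counts by edgeR TMM or DESeq2 factors, the authors' normalized values, all cells before quality control, dropping the expression filter or raising it to 50% of cells and 50 CPM, each title-number run, cells thinned to 500000 reads, and leaving out cells with more than 12000 genes, against their label or rich in glial and vascular markers (over 1000 CPM). The code was tested on simulated data. Scaling used edgeR 4.0.16 and DESeq2 1.42.0 in R 4.3.3, intervals scipy 1.17.1, and figures matplotlib 3.10.9, with pandas 2.3.3 and numpy 2.4.6 under Python 3.11.15.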

Additional observations from a re-analysis of the deposited data

Results flagged for a closer look

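Flrt2 moved in opposite directions with AAV-Ascl4 in the 2 cell types. Its log2 ratio to AAV-EGFP was 2.46 in granule cells and -1.68 in CA1 cells. The difference was not tested, since each group is 1 sample, and the CA1 value was 3.92 in the first run of title numbers and -4.89 in the second.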

How the results depend on the processing

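No paired analysis was possible because each group counted as 1 sample and the labels give no replicate numbers. Of the steadily different organizer genes, 11 of 14 kept their direction in all 16 alternatives for AAV-Ascl4 against AAV-EGFP in GC, 7 of 11 in CA1, 14 of 17 for CA1 against GC with AAV-EGFP and 12 of 14 with AAV-Ascl4. Of these alternatives 6 could not turn a direction, since the per-cell means are part of the steady rule and a pseudocount or filter leaves the sign of a ratio as it is. The values that turned were, for Ascl4 in GC, Nrxn2 at -0.31 in the first run, Slitrk3 at 0.33 and Lrrc4b at -1.47 in the second, and Lrrc4b at -0.35 without cells rich in glial and vascular markers. For Ascl4 in CA1 they were Flrt2 at 3.92 in the first run and, without those cells, Nlgn2 at 1.95, Clstn3 at -0.58 and Cadm3 at -4.08. For CA1 against GC they were Flrt2 at -2.06 (first run), Nrxn2 at -1.05 and Nlgn2 at -1.96 (without those cells) with AAV-EGFP, and Flrt2 at 0.83 (first run) and Slitrk3 at -1.06 (second run) with AAV-Ascl4. Counts of organizer genes past 1.5-fold moved as follows. For Ascl4 in GC the higher count was 4 with a pseudocount of 10 CPM, 13 with the authors' normalized values and 2 with the stricter filter, which also gave 6 lower. For Ascl4 in CA1 the lower count was 9 with per-cell means, with or without the highest cell, 7 with TMM and with DESeq2 scaling, 10 with the authors' values, 1 with the stricter filter, 13 in the second run, 9 after thinning and 10 without cells rich in glial and vascular markers, and the higher count was 21 in the first run. For CA1 against GC with AAV-EGFP the stricter filter gave 5 higher and 5 lower, the first run 17 lower and leaving out those cells 18 lower. With AAV-Ascl4 the authors' values gave 6 higher and 14 lower, the stricter filter 7 and 4, the first run 19 higher and leaving out those cells 14 lower. The stricter filter tests 21 organizer genes. For the other alternatives the cause was not tested. The authors' values moved the median of all expressed genes from 0.03 to -0.21 and from 0.13 to -0.27 in the cell type comparisons. The median of the expressed organizer genes for CA1 against GC with AAV-Ascl4 was -0.27 with the authors' values and -0.02 without the cells rich in glial and vascular markers, and for Ascl4 in CA1 it ranged from -0.16 to 0.86 over the runs. Where 1 cell of a group reached 10 CPM, the exact 95% interval of the share ran up to 11.8%, so small shares could not be told apart at these cell numbers.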
